A study of Mus musculus with 246 samples.

Results

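Homeobox genes encode transcription factors that bind DNA through a homeodomain. Their levels were read from RNA sequencing of 6 brain regions of adult male mice. The genes were taken by name, as symbols of the Lhx, Dlx, Otx, Emx, Irx, Meis, Pbx, Satb, Cux, Zfhx, Isl, Nkx, Pou and Hox families and of the sine oculis family (such as Six3), without overlapping-strand transcripts named "os", and with a count of at least 100 summed over all libraries. The rule left 69 of the 56691 genes in the table. Another 54 names matched but stayed under that sum, and 15 of those had no count at all. Of the 69, 68 are protein-coding and entered the tests, beside 17381 protein-coding genes in all. The remaining gene, Dlx1as, is an antisense transcript of Dlx1, and reads of the pair cannot be told apart here because the strand setting of the counting was not given in the sources used here.

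Punches were taken on both sides of the brain of outbred CD1 mice. The cortical regions were medial prefrontal cortex (mPFC), which spans infralimbic and prelimbic areas, and anterior cingulate cortex (ACC). The others were dorsomedial thalamus (DMT), ventral hippocampus (vHipp), the basolateral part of the amygdala (BLA) and the shell of the nucleus accumbens (Nacc). Each of 41 mice gave all 6 regions, for 246 libraries. Control mice (Ctrl_Veh) were raised by dams given an empty vesicular phospholipid gel, and mice exposed to early life adversity were reared on limited bedding and nesting material from P02 to P09 by dams given the same gel empty (ELA_Veh) or loaded with SAFit2, an inhibitor of the glucocorticoid receptor co-chaperone FKBP51 (ELA_SAFit2). Pups took up SAFit2 through the milk, and no unstressed group received it. The set without social interaction held 7 mice per condition. The other set, taken after 10 min with an unfamiliar mouse, held 6 Ctrl_Veh, 7 ELA_Veh and 7 ELA_SAFit2 mice.

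In the embryo, homeobox genes divide the forebrain into territories. Emx, Otx and Lhx2 are known for their roles in the cortex and hippocampus, Dlx, Nkx2-1, Lhx6, Lhx8 and Isl1 act in the ventral telencephalon, which gives rise to the striatum, pallidum and most GABAergic and cholinergic neurons, and Irx, Pou4f1 and Lhx9 act in the diencephalon, from which thalamus and habenula form. Meis and Pbx proteins are cofactors that bind DNA together with other homeodomain proteins. Many of these genes stay on in the adult neurons of the territory they helped to form.

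The promoters of 4 of the genes are shown because their levels separated the regions in different ways, Emx2 with vHipp, Isl1 and Lhx8 together with Nacc and BLA, and Otx2 with BLA and DMT. The windows run from 250 bases before to 50 bases after the RefSeq transcription start in GRCm38.p6, on the strand of the gene, 5′ to 3′. Capitals mark the letters TAATTA, a sequence recognised by many homeodomains, and every CG.
Emx2 (chr19:59458440-59458739, plus strand): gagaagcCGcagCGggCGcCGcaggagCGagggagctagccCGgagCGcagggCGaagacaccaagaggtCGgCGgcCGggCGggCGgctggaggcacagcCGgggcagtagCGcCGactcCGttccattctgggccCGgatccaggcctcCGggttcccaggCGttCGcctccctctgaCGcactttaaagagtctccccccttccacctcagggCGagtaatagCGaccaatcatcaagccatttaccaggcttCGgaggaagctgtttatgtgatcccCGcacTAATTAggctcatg
Otx2 (chr14:48665060-48665359, minus strand): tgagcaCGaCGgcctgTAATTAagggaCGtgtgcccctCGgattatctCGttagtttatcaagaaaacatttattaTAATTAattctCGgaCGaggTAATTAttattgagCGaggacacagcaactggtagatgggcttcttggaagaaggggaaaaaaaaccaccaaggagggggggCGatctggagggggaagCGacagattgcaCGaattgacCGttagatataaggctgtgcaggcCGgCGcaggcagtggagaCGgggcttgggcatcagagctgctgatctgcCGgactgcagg
Isl1 (chr13:116309639-116309938, minus strand): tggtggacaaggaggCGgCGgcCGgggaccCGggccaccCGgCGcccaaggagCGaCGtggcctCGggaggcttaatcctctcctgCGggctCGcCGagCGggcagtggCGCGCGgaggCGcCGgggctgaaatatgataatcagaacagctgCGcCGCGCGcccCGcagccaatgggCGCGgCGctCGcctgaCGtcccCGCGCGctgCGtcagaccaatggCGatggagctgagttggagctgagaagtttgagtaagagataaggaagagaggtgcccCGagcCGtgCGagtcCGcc
Lhx8 (chr3:154330511-154330810, minus strand): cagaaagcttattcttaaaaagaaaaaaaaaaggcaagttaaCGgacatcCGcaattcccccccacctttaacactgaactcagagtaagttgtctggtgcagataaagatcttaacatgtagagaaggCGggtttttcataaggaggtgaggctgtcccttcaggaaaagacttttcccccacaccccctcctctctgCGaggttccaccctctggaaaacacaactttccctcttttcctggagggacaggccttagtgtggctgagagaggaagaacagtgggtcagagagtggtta

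TAATTA reads the same on both strands, so a match counts for both. The Emx2 window held 1 match and 26 CG, the Otx2 window shown 3 matches and 16 CG, the Isl1 window no match and 37 CG, and the Lhx8 window no match and 4 CG. Otx2 has 4 windows, of which the one with the most matches is shown, and the other 3 held 1, 0 and 0 matches and 6, 8 and 11 CG. Of the 69 genes, 48 had a RefSeq promoter, with 63 windows in all because some genes have several starts. TAATTA occurred in 3 of these 63 windows (4.76%) and in 1738 of 32851 windows of all genes (5.29%). The median window of the homeobox genes held 17 CG, against 7 over all windows.

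Libraries held 20804247 to 43351424 counts, so 1 normalised count (CPM, counts scaled to a common library size) stood for 19.0 to 42.0 estimated counts. For 12 Nacc libraries, 6 of them without social interaction, the profile over genes that differ between mice matched another mouse than the label. They were kept under their labels, and without them 148 of the 151 regional calls described here remained. Several of them matched a mouse of the other set or of another condition. Judged by the mean profile of each region, 12 other libraries lay nearest to a region other than their own: 4 from mPFC lay nearest to ACC, 3 from ACC nearest to mPFC, and 5 from BLA nearest to Nacc. In mPFC, markers of olfactory bulb and anterior olfactory nucleus summed to between 8.95 and 414 CPM, with a median of 23.6. The mPFC and ACC libraries of 1 ELA_Veh mouse after social interaction were the highest of their regions in summed markers of striatal projection neurons, at 1358 and 1261 CPM. For the genes named below, regional calls that changed without such libraries are given beside them.

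Most of the genes differed between regions. Of the 69 genes, 49 reached a mean of 1 CPM in at least 1 region, 38 reached 10 CPM, and 28 were at 1 CPM or more in every region. Differences between regions made up a median of 82.1% of the variance of log2 levels over the 246 libraries for the 68 tested genes, against 61.4% over all genes tested. Among genes with at least 1 CPM in a region the medians were 87.6% (48 genes) and 67.5% (14334 genes). Lhx6 (96.4%), Lhx9 (96.2%) and Emx2 (95.8%) lay at the top, and Six5 (29.8%) and Meis3 (59.5%) at the bottom of the homeobox genes with 1 CPM or more. In a bulk library, fewer cells of a type and less RNA per cell cannot be told apart, and this holds for every level given here.

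**Figure D1:**
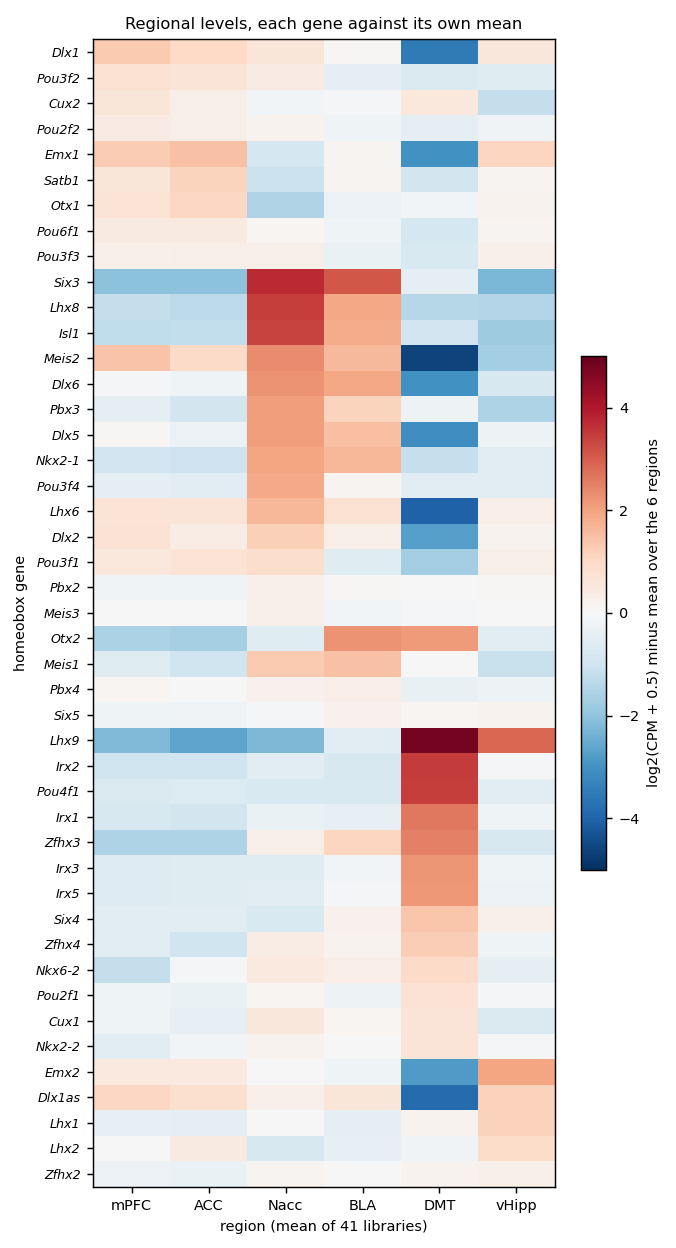
Mean level of the homeobox genes reported here with at least 1 CPM in a region, in the 6 regions (41 libraries each), as log2(CPM + 0.5) minus the mean of that gene over the regions, with red above and blue below that mean. Blocks of genes stand out in DMT (Irx, Pou4f1, Lhx9) and in Nacc with BLA (Six3, Isl1, Lhx8), and mPFC and ACC look alike.

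A gene was called higher or lower in a region when its log2 level differed by at least 1 from the mean of the other 5 regions with an adjusted p under 0.05 in edgeR's quasi-likelihood test with Benjamini-Hochberg adjustment. On this scale a region is set against the mean of log levels, so that a gene at or near 0 in several regions gives a very large value, and its CPM values are the better guide. DMT had the most calls, 21 higher and 15 lower, against 8.92% and 8.65% of all genes tested. Nacc followed with 20 higher (background 4.61%) and 11 lower (4.08%), and BLA had 14 higher (6.7%) and 3 lower (1.57%). In mPFC 8 were higher (3.41%) and 16 lower (3.09%), in ACC 8 were higher (3.49%) and 18 lower (3.57%), and in vHipp 9 were higher (5.32%) and 8 lower (4.93%). In all, 53 of the 68 genes were called in at least 1 region. Between pairs of regions, the calls ran from 3 genes for mPFC against ACC (background 1.41%) to 46 for ACC against DMT (20.6%) and 45 for DMT against vHipp (21.6%). Nacc and BLA differed in 21 genes (9.05%), ACC and vHipp in 22 (12.6%), and BLA and vHipp in 27 (13.3%).

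Emx1 was high in the 2 cortical regions and in vHipp. Emx1, an early marker of the dorsal telencephalon, showed medians of 11.8 CPM in mPFC and 13.4 in ACC, then 10.3 in vHipp, 5.43 in BLA, 2.64 in Nacc and 0.0628 in DMT. The libraries of mPFC, ACC and vHipp overlapped for Emx1, with ranges of 7.59 to 17.5, 10.2 to 19.6 and 5.73 to 13.1 CPM. It was called higher in all of these regions, by 1.96, 2.15 and 1.67 on the log2 scale.

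ACC alone also had calls for Otx1 and Satb1. Otx1, a gene of deep-layer cortical neurons, was at 5.82 to 11.1 CPM in ACC with a median of 8.62, and its median was 6.84 in mPFC and 1.07 in Nacc. Satb1, which encodes a chromatin-binding protein, was at 106.7 to 214 CPM in ACC with a median of 183, against medians of 131 in mPFC, 95.2 in BLA, 91 in vHipp, 44 in DMT and 39.3 in Nacc. The log2 differences from the other regions in ACC were 1.39 (SE 0.054) and 1.34 (SE 0.039). The ranges of ACC and mPFC overlapped for both genes, and without the cortical libraries high in olfactory or striatal markers Otx1 was called in mPFC too (1.11, against 0.98 with all libraries).

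Dlx1, Dlx2 and Meis2, genes of GABAergic neurons and their precursors, were called higher in mPFC as well, and these levels moved with markers of olfactory tissue. Dlx1 ran from 18.8 to 112 CPM in mPFC with a median of 26.7, and in ACC from 19.7 to 44.7 with a median of 23.3. In ACC, Dlx1 and Meis2 were called higher too, by 1.19 and 1.08 on the log2 scale. Of the 10 mPFC libraries with the most Dlx1, 7 were among the 10 with the highest summed olfactory markers, and the same held for 8 of 10 with Meis2 and 7 of 10 with Pbx3. The library with the highest olfactory sum (414 CPM) had 112 CPM Dlx1, 22.8 CPM Dlx2, 320 CPM Meis2 and 60.7 CPM Pbx3. Without the 11 mPFC and 1 ACC libraries highest in olfactory or striatal markers, the log2 difference in mPFC was 1.38 for Dlx1 and 1.48 for Meis2, which kept their calls, and 0.90 for Dlx2, which lost its call (1.23 with all libraries). Pbx3 moved from -0.26 to -1.02 and Meis1 from -0.35 to -1.33, and both were then called lower in mPFC.

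Genes of other territories were near 0 in the cortex. Lhx9 had a median of 0.337 CPM in mPFC and 0.105 in ACC, Otx2 of 0.0279 and 0, Irx5 of 0 and 0, and Six3 of 0.102 and 0.218, all called lower there. Irx2 and Lhx1 were likewise called lower in ACC, with medians of 0 CPM. Six3 reached 19.6 CPM in the mPFC library and 17.1 CPM in the ACC library of the ELA_Veh mouse with the highest striatal markers. Without the cortical libraries high in olfactory or striatal markers, the ACC calls of Irx2, Irx5 and Otx2 were lost (adjusted p = 1 with edgeR for each). Their differences were then -4.80, -2.39 and -4.57, against -4.93, -2.62 and -4.34 with all libraries, so their size changed little. For genes at or near 0 in a region the test could give a statistic near 0, and so no call, beside a large log2 difference. Irx2 in mPFC was such a case with all libraries (-3.94, not called). The calls of Lhx5 in ACC (-2.81, adjusted p = 1), Irx5 in Nacc (-1.44, adjusted p = 1) and Six2 in mPFC (0.18, adjusted p = 0.368) were lost as well, and those of Lhx5 in DMT (1.19) and Lhx6 in mPFC (1.04) were among those gained. Without the libraries nearest to another region, Nkx1-2 lost its call in mPFC (0.96) and Six4 gained one in ACC, lower by -1.01 on the log2 scale.

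The direct comparison of mPFC with ACC called 3 of 68 genes. Lhx9 was higher in mPFC by 1.45 on the log2 scale (background 0.875%), at levels under 1 CPM in every library of both regions. Nkx6-2, a factor expressed by myelinating oligodendrocytes, ran from 0.77 to 12.9 CPM in ACC with a median of 5.09 and from 0.555 to 5.25 CPM in mPFC with a median of 1.91. It was higher in ACC, with a log2 difference of -1.29 (SE 0.114, adjusted p = 2.9e-21 with edgeR, background 0.535%), although the libraries overlapped. Summed oligodendrocyte markers had a median of 3170 CPM in ACC and 1475 CPM in mPFC, and the 10 libraries with the most Nkx6-2 shared 8 with the 10 of highest marker sum in ACC and 7 in mPFC. The part of these cells in the Nkx6-2 difference was not tested. Dlx3, with a mean under 1 CPM, was the remaining call, also higher in ACC (log2 difference -1.20).

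By adjusted p alone, 14 genes were higher in mPFC (background 21%) and 8 in ACC (17.6%). Among them, Meis1 differed by 0.89 and Pbx3 by 0.74 in favour of mPFC, and Satb1 by -0.49 and Lhx2 by -0.44 in favour of ACC. Without the cortical libraries high in olfactory or striatal markers the Meis1 difference was -0.06 (adjusted p = 0.799 with edgeR), Lhx9 lost its call (1.23, adjusted p = 0.0612), and Six2 (-1.82) and Hoxd1 (-1.18) were among those newly called higher in ACC. Without the libraries nearest to another region, Meis1 (1.005) and Lhx1 (1.75) were called higher in mPFC.

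**Figure D2:**
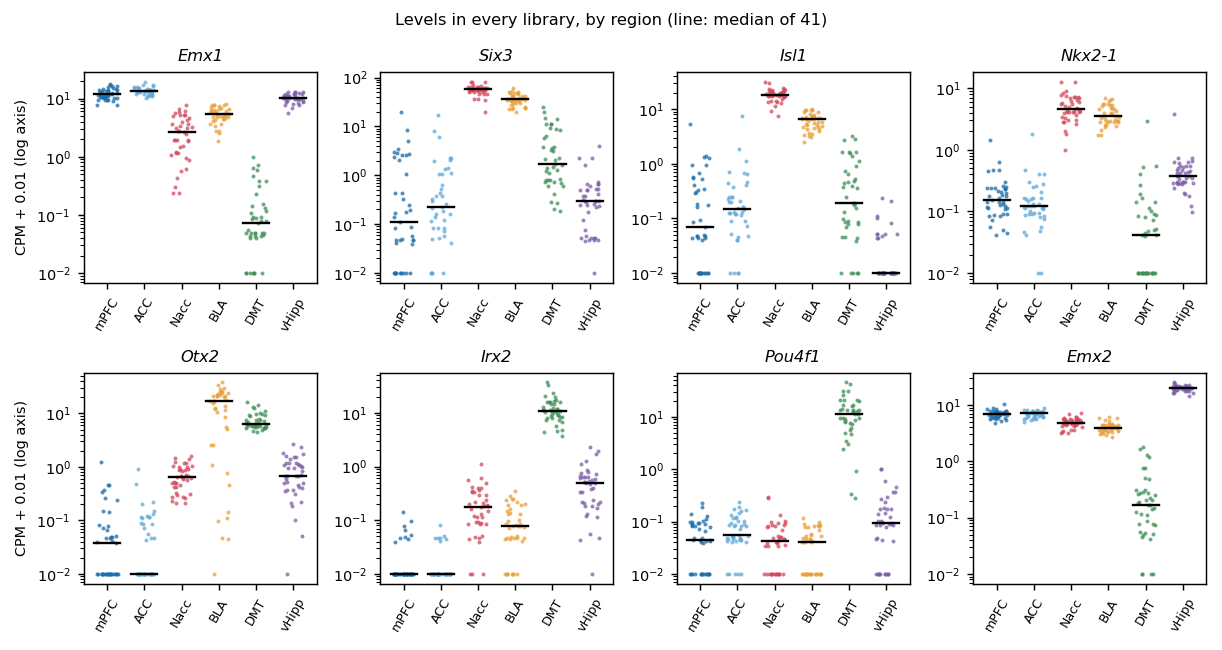
Levels of 8 homeobox genes in every library, by region, as CPM + 0.01 on a log axis, with each point 1 library and each line the median of 41. Emx1 is high in mPFC, ACC and vHipp, Six3, Isl1 and Nkx2-1 in Nacc and BLA, Otx2 in BLA and DMT, Irx2 and Pou4f1 in DMT, and Emx2 in vHipp, and single cortical libraries rise far above their group for Six3 and Isl1.

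In Nacc, genes of the ventral telencephalon were high. Isl1 (ENSMUSG00000042258.14), which acts in striatal projection neurons of the direct pathway and in cholinergic neurons, was at 7.54, 18.2 and 32.1 CPM at the lowest, median and highest in Nacc and at 2.51, 6.53 and 10.1 CPM in BLA. The ranges of Nacc and BLA met only at their ends, and the median of every other region was at most 0.178 CPM. Isl1 was 1.58 (SE 0.119, adjusted p = 4.13e-29 with edgeR) higher in Nacc than in BLA on the log2 scale. Lhx8 (ENSMUSG00000096225.8), needed for cholinergic neurons of the basal forebrain, ran from 3.41 to 56 CPM in Nacc with a median of 15.5, and from 1.21 to 12.4 CPM in BLA with a median of 4.64. Its Nacc and BLA libraries overlapped, with a log2 difference of 1.67 (SE 0.116), and its medians in the other regions were at most 0.0347 CPM.

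Within Nacc and BLA, Lhx8 moved with markers of cholinergic neurons. The 4 markers of cholinergic neurons, among them Chat, Slc5a7 and Slc18a3, summed to between 31.9 and 206 CPM in Nacc with a median of 94.3, and to between 3.32 and 77.8 CPM in BLA with a median of 23.3. All 4 were called higher in DMT too (background 8.92%), with a sum of 3.65 to 61.3 CPM and a median of 15.4. Lhx8 was at most 0.150 CPM in DMT. Of the 10 libraries with the most Lhx8, 8 were among the 10 highest in this sum in Nacc and 8 in BLA. The part of these cells in the level of Lhx8 was not tested.

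The Dlx pairs and Six3 followed the same pair of regions. Six3, which acts in indirect-pathway striatal neurons, was at 19.5 to 83.2 CPM in Nacc with a median of 57.7, and at 20 to 62.2 CPM in BLA with a median of 35.6. These libraries overlapped widely, and the difference between Nacc and BLA was 0.64 (SE 0.182, adjusted p = 0.00108 with edgeR), under the minimum of 1 for a call. Dlx5 had a median of 24.2 CPM in Nacc, 16.1 in BLA, 4.24 in vHipp and 0.0661 in DMT, and its neighbour Dlx6 had 31.6, 25.8, 3.18 and 0.146 CPM. Dlx5 and Dlx6 lie within 100 kb of each other, as do Dlx1 and Dlx2, and all 4 were called lower in DMT. Dlx1 had no call in Nacc, with a median of 17.1 CPM, while Dlx2 was called higher there by 1.68 (median 10.7 CPM).

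Nkx2-1, the gene of the medial ganglionic eminence, had a median of 4.52 CPM in Nacc, ranging from 0.967 to 12.8, and 3.48 CPM in BLA, ranging from 1.7 to 6.83. Its difference between those regions was 0.45 (SE 0.108). Lhx6, which lies downstream of Nkx2-1 in interneurons, was broader, with medians of 46 CPM in Nacc, 23.9 in mPFC, 23.5 in BLA, 23 in ACC and 18.4 in vHipp. In Nacc it reached 131 CPM, and it was 1.05 (SE 0.076) above BLA on the log2 scale. In DMT its median was 0.282 CPM and its highest value 3.85, below every library of every other region.

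The TALE cofactors Meis2 and Pbx3 were the most abundant of the genes raised in Nacc. Meis2 reached the highest mean of the set when levels were divided by exon length, 24.5 CPM per kb in Nacc, with Pou6f1 in ACC (20.2 CPM per kb) and Pbx2 in Nacc (18.1 CPM per kb) also near the top. Its median was 297 CPM in Nacc, 184 in BLA, 142 in mPFC, 109 in ACC, 16.4 in vHipp and 1.43 in DMT, so that it was called higher in 4 regions and lower in vHipp and DMT. Pbx3 ran from 35.7 to 79.4 CPM in Nacc with a median of 61.8, and from 14.7 to 47.8 CPM in BLA with a median of 30.9, with a log2 difference of 0.99 between them. Meis1 did not differ between Nacc and BLA past the test (medians 10.9 and 12.3 CPM, log2 difference -0.19, adjusted p = 0.15 with edgeR).

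A gene was said to lead in a region when it was called higher there than in each of the 5 others. In Nacc 6 genes led (background 0.869%), Isl1, Lhx6, Lhx8, Pou3f4 and, with means under 1 CPM, Dlx3 and Nkx2-3. Pou3f4, a POU factor of striatal precursors, ran from 16.1 to 52.1 CPM in Nacc with a median of 32.7 and from 4.53 to 13.6 CPM in BLA with a median of 9.49, with no overlap between these regions and a log2 difference of 1.82 (SE 0.08, adjusted p = 8.78e-57 with edgeR). Called lower in Nacc were Lhx9, Otx1, Pou4f1 and Irx3, of which Otx1 (median 1.07 CPM, log2 difference -2.13) had the highest level.

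In BLA, no gene led (background 1.61%). Of its 14 higher genes, 11 were also among the 20 higher in Nacc (78.6% and 55% of the lists), a pair of regions whose calls share the 4 others as reference. These were led by Lhx8 (5.31), Six3 (3.77), Isl1 (3.73), Nkx2-1 (3.29), Dlx6 (2.59), Dlx5 (2.195) and Meis2 (1.91), given as differences from the mean of the other regions on the log2 scale. Otx2 (4.86), Zfhx3 (1.34) and Irx5 (1.27) were higher in BLA and had no such call in Nacc. Summed markers of striatal projection neurons ran from 648 to 3848 CPM in BLA with a median of 1672, and from 1419 to 4941 in Nacc with a median of 3799. The 10 BLA libraries with the most Six3 were the 10 with the highest striatal sum, and 7 of the 10 with the most Isl1 were among them. In the 5 BLA libraries nearest to Nacc, Six3 was at 47.4 to 62.2 CPM and the striatal sum at 2465 to 3848 CPM, whereas the other 36 held 20 to 50.6 CPM of Six3 and a sum of 648 to 2561 CPM. The part of striatal cells in these levels was not tested, and Six3, Isl1 and Lhx8 were called higher in BLA also without the 5 libraries. Markers set for basolateral amygdala neurons summed to between 424 and 715 CPM in BLA and to between 320 and 622 CPM in mPFC, so that the ranges overlapped, and Rspo2, 1 of these 4 markers, had a higher mean in ACC (41.2 CPM) than in BLA (18.5 CPM).

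Otx2 (ENSMUSG00000021848.17), which acts in the early fore- and midbrain and stays on in the choroid plexus, was at 0, 16.8 and 37.8 CPM at the lowest, median and highest in BLA and at 4.52, 6.31 and 16 CPM in DMT. BLA spanned the whole range of DMT, and the other 4 regions stayed at or under 2.63 CPM. BLA was 0.93 (SE 0.145, adjusted p = 1.35e-09 with edgeR) above DMT on the log2 scale. Without the libraries nearest to another region the edgeR difference was 1.12 (adjusted p = 2.64e-17), and Otx2 then led in BLA.

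Choroid plexus markers moved with it. Ttr, Folr1, Kcne2, Kl, Clic6 and Aqp1 summed to between 23.3 and 5751 CPM in BLA with a median of 2673, against medians of 32.5 CPM in DMT, 32.6 in Nacc, 22.3 in vHipp, 4.74 in mPFC and 3.94 in ACC. Ttr had a mean of 2114 CPM in BLA, and Kl 149 CPM. Of the 10 BLA libraries with the most Otx2, 9 were among the 10 with the highest choroid sum. The library with the lowest choroid sum had 0.0360 CPM of Otx2, and the one with the highest had 37.8 CPM. The 5 BLA libraries nearest to Nacc had choroid sums of 27.0 to 111.1 CPM and Otx2 at 0 to 1.08 CPM. In DMT, 8 of the 10 libraries with the most Otx2 were among the 10 with the highest choroid sum, and the DMT library with the lowest sum, 5.08 CPM, still had 8.75 CPM of Otx2. What share of Otx2 came from choroid plexus was not tested.

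**Figure D3:**
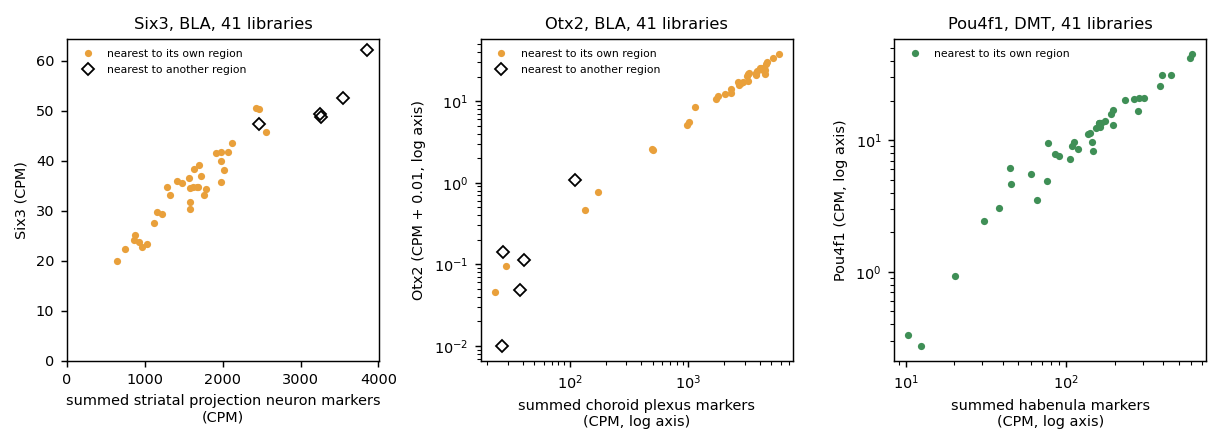
Level of a homeobox gene against summed markers of another tissue in each of 41 libraries, for Six3 against striatal markers in BLA (linear axes, CPM), Otx2 against choroid plexus markers in BLA (CPM + 0.01 against CPM, log axes) and Pou4f1 against habenula markers in DMT (CPM, log axes). Open diamonds are the 5 BLA libraries nearest to Nacc, which lie high in striatal markers and low in Otx2, and all 3 genes rise with their markers.

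DMT had the most leading genes, 15 (background 3.8%), of which 6 (Irx1, Irx2, Irx3, Irx5, Lhx9 and Zfhx3) were higher in every DMT library than in any library of another region (background 2.74%). Lhx9 (ENSMUSG00000019230.15), a LIM-homeodomain gene of the thalamus and pretectum, was at 87.2, 110 and 127 CPM at the lowest, median and highest in DMT and at 20.6, 27.6 and 34.6 CPM in vHipp. The regions did not overlap, and the difference from vHipp was 1.95 (SE 0.095, adjusted p = 7.55e-53 with edgeR). Zfhx3, a large zinc finger and homeodomain protein, ran from 72.1 to 115 CPM in DMT with a median of 101.1, followed by BLA (median 37.5, highest 59.9 CPM) and Nacc (median 22.5 CPM).

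The Irx genes, which pattern the diencephalon and lie in clusters, were present in DMT at a few CPM each and near 0 elsewhere. Irx1 ran from 3.94 to 22.6 CPM with a median of 8.38, and Irx2 from 3.71 to 36.6 CPM with a median of 10.9. Irx3 had a median of 3.53 CPM, with 1.66 at the lowest, and Irx5 a median of 3.02, with 1.49 at the lowest. None of the other 5 regions exceeded 2.35 CPM for any of these 4 genes. Against the nearest region the log2 differences were 3.55 for Irx1, 4.52 for Irx2, 3.53 for Irx3 and 3.63 for Irx5. Of the 10 DMT libraries with the most Irx2, 8 were among the 10 with the highest habenula marker sum and 1 among the 10 with the highest thalamic marker sum.

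Pou4f1 (ENSMUSG00000048349.10), also named Brn3a and known from habenula neurons, had the largest difference of any gene here, 7.71 (SE 0.12) above the mean of the other regions. It ran from 0.273 to 45.2 CPM in DMT with a median of 11.3, and no library of another region was above 1.02 CPM. The spread within DMT was therefore wide and its lowest libraries overlapped with vHipp. Habenula markers (Tac2, Gpr151, Nwd2, Chrnb4, Chrna3, Tac1) summed to between 10.4 and 608 CPM in DMT with a median of 146. The medians were 242 CPM in Nacc, 123 in mPFC, 116 in ACC, 99.9 in BLA and 60.1 in vHipp, and of the 6 markers Chrnb4, Gpr151 and Chrna3 were called higher in DMT and Tac1 lower, while Tac1 was called higher in Nacc. Of the 10 libraries with the most Pou4f1, 9 were among the 10 with the highest habenula sum, with 0.331 CPM of Pou4f1 at the lowest sum and 45.2 CPM at the highest. The part of habenula cells in the level of Pou4f1 was not tested.

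Six4 also led in DMT (1.78 to 5.05 CPM, median 3.59) and overlapped with at least 1 library of another region. Irx4, Irx6, Lhx3, Lhx4 and Nkx6-3 led as well, at means of at most 0.621 CPM. In every DMT library 3 genes were lower than in any library of another region (background 2.75%): Lhx6, Emx2 and Pou6f1. Pou6f1, a POU factor of mature neurons, still stood at 47.7 to 75.7 CPM in DMT, against at least 82.1 CPM in BLA. The largest decreases were those of Emx1 (-5.80), Lhx6 (-5.70), Dlx5 (-5.32) and Meis2 (-5.27), genes of the telencephalon, all at medians of at most 1.43 CPM in DMT.

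vHipp was marked by Emx2 (ENSMUSG00000043969.5), which is required for growth of the hippocampus. Its level was 14.7, 20 and 25 CPM at the lowest, median and highest, and no library of another region exceeded 10.4 CPM. It was the only gene above all other libraries in vHipp (background 1.2%), with a log2 difference of 1.53 (SE 0.059, adjusted p = 2.33e-66 with edgeR) from mPFC, the nearest region. Lhx2, a selector gene of cortex and hippocampus, ran from 47.4 to 78.5 CPM with a median of 63 and overlapped with ACC, where the median was 44.9 CPM. Emx1, as given above, overlapped with the cortex.

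Lhx9 and Lhx1 were also called higher in vHipp. Lhx9 was at 20.6 to 34.6 CPM, below DMT and above the 15.9 CPM of the highest BLA library. Lhx1, which marks Cajal-Retzius cells among other neurons, was low but highest there, at 0.453 to 3.67 CPM with a median of 1.12, and was 1.60 (SE 0.176) above DMT. Summed markers of Cajal-Retzius cells ran from 148 to 245 CPM in vHipp and from 184 to 480 CPM in Nacc. Of these 4 markers, Trp73, Ebf3 and Reln were called higher in vHipp (background 5.32%) and Cacna2d2 lower (4.93%), while Cacna2d2 was called higher in Nacc (4.61%). Summed thalamic markers in vHipp ran from 71.1 to 616 CPM, against 2089 to 3507 CPM in DMT. Of the 10 vHipp libraries with the most Lhx9, 5 were among the 10 with the highest thalamic sum, and 7 of 10 with the most Irx2. With Hoxa7, at a mean under 1 CPM, 3 genes led in vHipp (background 1.73%). The striatal genes were near 0, with Isl1 at a median of 0 CPM and at most 0.223, and Six3 at a median of 0.286 CPM. Meis2 (-2.10) and Pbx3 (-2.05) were called lower. Cux2, an upper-layer gene of the cortex, was lower in every vHipp library (24.7 to 45.8 CPM) than in any library of another region (background 0.455%), of which the lowest was 46.1 CPM, in mPFC.

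No gene led in mPFC (background 0.144%) or in ACC (0.0921%), and no gene of either lay above or below all other libraries (0% of all genes in each direction). In Nacc (0.046% above and 0.0173% below) and BLA (0.0518% and 0%) no gene lay above or below all other libraries either.

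Of the 68 genes, 15 had no call in any region, and 12 of these reached 1 CPM. Among these 12 were Pbx2 and Pbx4, Cux1, Zfhx2, Meis3, Six5, Nkx2-2 and 4 POU genes (Pou2f1, Pou2f2, Pou3f2 and Pou3f3). Below 1 CPM in every region were 20 genes: 5 Hox, 5 Nkx, 3 Lhx, 2 Dlx, 2 Irx, 2 of the sine oculis family and 1 Pou. Hox genes pattern the hindbrain and spinal cord and are usually silent in the forebrain. The table held 39 Hox names, of which 5 passed the summed count. Their highest mean in any region was 0.0869 CPM, and their highest library was at 0.889 CPM.

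Genes on fixed lists of cofactors and partners of the homeobox factors were lower in DMT more often than higher. The list of LIM cofactors holds Lmo, Ldb and Ssbp genes. Of its 10 genes tested, 3 were lower in DMT (8.65% of all genes tested) and 0 higher (8.92%). Lmo3 had a mean of 11.96 ± 8.69 CPM in DMT (SD, n = 41) against 226 ± 33.9 in BLA, and Lmo4 38.0 ± 4.51 CPM against 325 ± 34.2 in ACC. In the other regions, where 3.41% to 6.7% of all genes tested were called higher, 1 or 2 of the 10 were, with Lmo4 in mPFC and ACC, Lmo3 in Nacc and BLA, and Lmo1 in vHipp, and Ldb2 was lower in Nacc and vHipp. Of 6 Groucho corepressors, which homeodomain repressors recruit, 1 was called in any region, Tle4, lower in DMT by 1.60 on the log2 scale (background 8.65%). Of 11 partners of the sine oculis and TALE proteins, 4 were lower in DMT (8.65%), among them Eya4 (-2.15), Pknox2 (-2.14) and Eya1 (-2.12). Single genes were higher elsewhere (3.41% to 6.7%), with Dach1 in Nacc (2.05) and BLA (1.28), Eya4 in mPFC (1.53) and Eya1 in vHipp (1.76). Dach2 was called lower in ACC (3.57%). The median log2 difference in DMT was -0.50 for the LIM cofactors, -0.55 for the Groucho corepressors and -0.47 for these partners, against -0.01 over all genes tested.

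Homeobox genes outside the name rule were also called in every region. Of 41 tested, 5 were higher and 7 lower in mPFC (3.41% and 3.09% of all genes tested), 3 and 4 in ACC (3.49% and 3.57%), 9 and 8 in Nacc (4.61% and 4.08%), 8 and 4 in BLA (6.7% and 1.57%), 9 and 6 in DMT (8.92% and 8.65%), and 10 and 4 in vHipp (5.32% and 4.93%). Gbx2, a thalamic gene, had a mean of 64.3 ± 9.36 CPM in DMT and 3.05 ± 1.72 CPM in Nacc. Prox1, which marks dentate granule cells and thalamus, had 252 ± 54.4 CPM in vHipp and 215 ± 28.5 CPM in DMT (SD, n = 41 for each). Of 18 other forebrain transcription factors, to be read against the same shares, 3 were higher and 9 lower in DMT, with Tcf7l2 at 453 ± 37.1 CPM there (SD, n = 41). In the other regions 6 were higher and 3 lower in mPFC, 5 and 5 in ACC, 6 and 4 in Nacc, 7 and 1 in BLA, and 7 and 1 in vHipp.

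Early life adversity and SAFit2 were compared within each region to ask whether adult levels of these genes carried a trace of either. None was called. Without social interaction, 18 comparisons (ELA_Veh against Ctrl_Veh, ELA_SAFit2 against ELA_Veh, and ELA_SAFit2 against Ctrl_Veh in 6 regions) gave 849 tests of homeobox genes, with 0 calls at an adjusted p under 0.05 by edgeR's quasi-likelihood test and 0 by DESeq2. The smallest adjusted p with edgeR was 0.54. At an unadjusted p under 0.05 there were 44 with edgeR and 42 with DESeq2, and the share with edgeR was 5.18% of the homeobox tests and 4.59% of the tests of all genes, none of which was called either (background 0%). Among genes with at least 10 CPM, the 411 log2 differences ran from -0.86 to 0.93 with a median size of 0.07 and a median SE of 0.094. The median size of the regional differences was 0.606. The largest of the 411 was that of Pbx3 in mPFC for ELA_SAFit2 against ELA_Veh. Pbx3 moved with olfactory markers in mPFC, as given above, and the part of such tissue in this difference was not tested. In Nacc without the 12 libraries that matched another mouse, 150 tests gave 0 calls and 4 at an unadjusted p under 0.05 with edgeR.

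**Figure D4:**
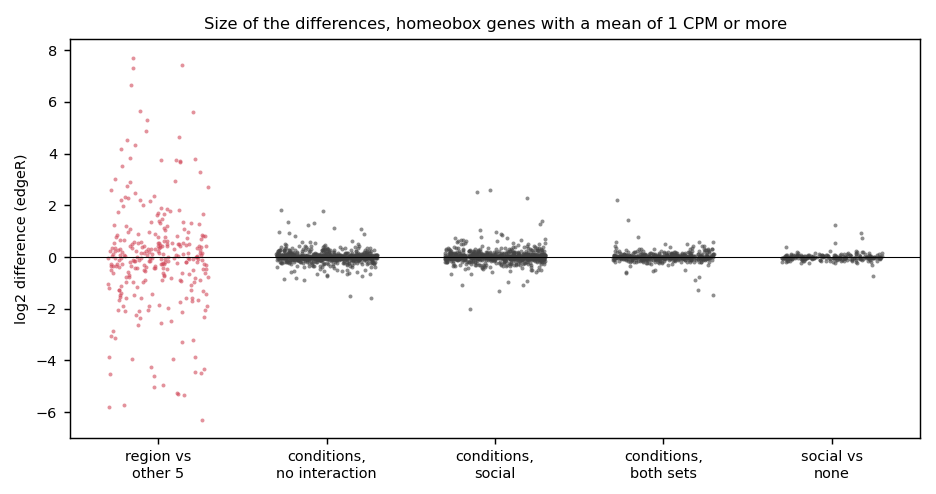
Log2 differences (edgeR) of homeobox genes, for each region against the other 5, for the conditions without interaction, after social interaction and over both sets, and for social interaction against none, 1 point per gene and comparison. Regional points cover all 6 regions of genes with a mean of 1 CPM or more in any region. The other points cover only regions where the gene had a mean of 1 CPM or more. This leaves out Nkx2-1 in DMT (-3.60 for ELA_SAFit2 against ELA_Veh without interaction), among others. The regional differences reach 7.71, and the plotted ones of conditions and of social interaction lie closer to 0.

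The genes with the smallest p in each comparison are given by value. For ELA_Veh against Ctrl_Veh these were Six4 in mPFC (-1.14), Isl1 in ACC (1.99), Lhx9 in Nacc (1.48), Irx3 in BLA (-1.27), Dlx1 in DMT (1.80) and Pou3f4 in vHipp (-0.24), with adjusted p from 0.691 to 0.999 (edgeR). All but Pou3f4 were at low levels in the region concerned. Irx3 in BLA was at 0.364 to 0.797 CPM in Ctrl_Veh (median 0.462), 0.0333 to 0.393 CPM in ELA_Veh (median 0.149) and 0.144 to 0.754 CPM in ELA_SAFit2 (median 0.233), so that all groups overlapped. Six4 in mPFC had medians of 0.868 CPM in Ctrl_Veh and 0.374 CPM in ELA_Veh, also with overlap.

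For ELA_SAFit2 against ELA_Veh the smallest p belonged to Nkx6-2 in mPFC (-0.64), Pou3f1 in ACC (-0.22), Irx6 in Nacc (-1.15), Zfhx2 in BLA (-0.13), Nkx2-1 in DMT (-3.60) and Cux2 in vHipp (0.26), with adjusted p from 0.54 to 0.999 (edgeR). Irx6 in Nacc and Nkx2-1 in DMT were at low levels. Irx6 had means of 0.375 CPM in ELA_Veh and 0.175 CPM in ELA_SAFit2. Nkx2-1 had medians of 0.0322 and 0 CPM, and its highest ELA_Veh library was at 2.87 CPM. Cux2 in vHipp was at 30.2 to 33.2 CPM in ELA_Veh, 31.3 to 45.8 CPM in ELA_SAFit2 and 29.4 to 41.5 CPM in Ctrl_Veh. The groups overlapped, and the medians were 31.6, 38.5 and 32.9 CPM.

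For ELA_SAFit2 against Ctrl_Veh it belonged, in the regions given here, to Pou3f1 in mPFC (0.29) and ACC (-0.22), Otx2 in Nacc (-0.84), Irx3 in BLA (-0.62) and Lhx9 in vHipp (0.27), with adjusted p from 0.697 to 1 (edgeR). Pou3f1, a POU factor of deep-layer cortical neurons, had medians of 20.1 CPM in Ctrl_Veh and 22.9 CPM in ELA_SAFit2 in mPFC, and of 25.2 and 21 CPM in ACC, opposite in sign and overlapping in both. Lhx9 in vHipp was at 23.4 to 29.2 CPM in Ctrl_Veh (median 25.9), 22.4 to 31.6 CPM in ELA_Veh (median 29) and 26.4 to 34.6 CPM in ELA_SAFit2 (median 32.6). Its difference between ELA_SAFit2 and Ctrl_Veh was 0.27 (SE 0.074, adjusted p = 0.697 with edgeR). After social interaction the medians were 30 CPM in Ctrl_Veh and 26 CPM in ELA_SAFit2.

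After social interaction the same 18 comparisons gave 843 tests with 0 calls by edgeR (background 0.0011%) and 0 by DESeq2, and 32 and 30 at an unadjusted p under 0.05. Averaged over both sets, 620 tests in 12 comparisons gave 0 calls by either tool (background 0.00263% with edgeR) and 41 and 37 at an unadjusted p under 0.05. In ACC, 7 of 48 genes passed that unadjusted threshold for ELA_Veh against Ctrl_Veh (5.54% of all genes) and 5 of 48 for ELA_SAFit2 against ELA_Veh (6.18%). The latter comparison also gave 5 of 48 in mPFC (7.3%), 5 of 50 in vHipp (5.59%) and 0 of 52 in BLA (3.8%). Isl1 had the smallest p in ACC for ELA_Veh against Ctrl_Veh. Its ELA_Veh medians there were 0.200 CPM without and 0.140 CPM after interaction, with highest libraries at 1.89 and 7.38 CPM. The difference of the ELA_Veh effect between the sets was tested 310 times, with 0 calls by either tool (background 0%) and 15 and 12 at an unadjusted p under 0.05.

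Social interaction itself was compared with none over all 3 conditions, 21 libraries without and 20 with interaction per region. Pou2f2 rose and Pbx2 fell in mPFC (2 of 48 genes), each by a small step, and 0 genes were called in the other 5 regions. With edgeR, 7.62% of all genes tested were called in mPFC, 4.22% in ACC, 1.54% in BLA, 1.63% in DMT, 1.22% in vHipp and 0% in Nacc. DESeq2 called 4, adding Emx2 in mPFC and Lhx6 in BLA. Over the 310 tests, 22 passed an unadjusted p under 0.05 with edgeR, 7.1% against 13.4% of the tests of all genes. The Nacc result rests on labels that several of the 12 libraries matching another mouse went against, also between the sets. Without these 12, 0 of 54 homeobox genes and 0.0256% of all genes were called in Nacc with edgeR. The share of all genes at an unadjusted p under 0.05 was then 7.23%, against 2.63% with them.

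Pou2f2, also named Oct-2, a POU factor of neurons and B cells, was at 19.3, 23.2 and 25.8 CPM at the lowest, median and highest without interaction and at 20.1, 25 and 27.7 CPM after it. The sets overlapped, and the log2 difference was 0.14 (SE 0.037, adjusted p = 0.0191 with edgeR). Without the 4 mPFC libraries nearest to ACC it was 0.12 (adjusted p = 0.0634), and without the mPFC libraries high in olfactory or striatal markers it was 0.13 (adjusted p = 0.0652), so that the call was lost in both. Pbx2, a cofactor of Hox and Meis proteins, was at 43.5, 50.8 and 55.4 CPM without and at 42.9, 46.6 and 52.4 CPM after interaction, again with overlap. Its log2 difference was -0.10 (SE 0.027, adjusted p = 0.0177 with edgeR), and it remained called without either group of libraries, at -0.10 (adjusted p = 0.0445) and -0.14 (adjusted p = 0.00252).

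In ACC, Pou2f2 differed by 0.08 (adjusted p = 0.304 with edgeR) and Pbx2 by -0.03. Genes near the threshold were Emx2, with -0.19 in mPFC (adjusted p = 0.0641 with edgeR) and -0.16 in ACC (adjusted p = 0.0826), and Lhx6 and Dlx1 in BLA, with -0.20 (adjusted p = 0.0849) and -0.25 (adjusted p = 0.106). Without the cortical libraries high in olfactory or striatal markers, Emx2 passed in mPFC (-0.25, adjusted p = 0.0234) and in ACC (-0.18, adjusted p = 0.0359). It passed in neither without the libraries nearest to another region (adjusted p = 0.188 in mPFC and 0.0717 in ACC). Whether the step in mPFC differed from that in another region was not tested.

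**Figure D5:**
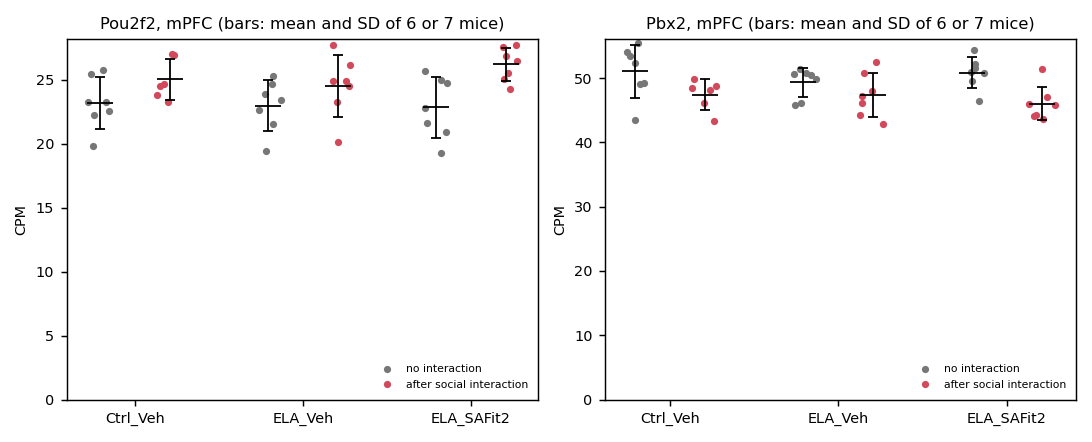
Level of Pou2f2 and Pbx2 in mPFC in CPM, on axes from 0, by condition and set, with each point 1 mouse and bars for the mean and SD of 6 or 7 mice. Pou2f2 lies slightly higher and Pbx2 slightly lower after social interaction, and points of the sets overlap in every condition.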

How the data were processed

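Libraries were prepared from poly-A RNA of tissue punches with a stranded kit and sequenced as paired reads. The deposited table holds estimated counts per gene, which the authors obtained by aligning reads to the mouse genome. Per the labels' processing notes, GRCm39 (mm39), STAR and DESeq2 were used, and the name of the deposited table gives Salmon as the quantifier, while its strand setting and the versions are not given in the sources used here. Of the values, 12.12% were not whole, and all were rounded. Gene types came from GENCODE M21 for 52073 IDs and from RefSeq symbols for 978, and 3640 had none. Genes that code for protein, reach 100 counts over all libraries fitted together and are detected in 6 or more of them were fitted with edgeR 4.0.16 (R 4.3.3), TMM scaling, quasi-likelihood tests and Benjamini-Hochberg adjustment. Regions were compared in 1 model of 36 groups with no term for the mouse. Conditions and sets were compared within each region. CPM values use the TMM library sizes. The SE given with an edgeR difference was derived from that difference and the F statistic of its test, and is not an output of edgeR. DESeq2 1.42.0, another scaling, no filter, all gene types, a mouse block and left-out libraries were alternatives. The fits were tested on simulated data. Tables and figures were made with Python 3.11.15 and Matplotlib 3.10.9.

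Same-numbered libraries come from the same mouse, and their deviations from group means had median correlations of 0.088 to 0.36 between pairs of regions. Samples are separate mice within a region, so p-values there measure the spread between mice. Groups of 4 mice shared a cage, which was not modelled. Adversity and SAFit2 were assigned to whole litters and their dams, so mice of the same litter shared their treatment. The litter of each mouse is not given in the sources used here and was not modelled. The p-values of the condition comparisons therefore do not allow for differences between litters. Named genes were, per region, up to 8 called higher and 4 called lower with the largest difference among those of at least 1 CPM, all called between conditions or sets, the gene of smallest p per condition comparison, and neighbours within 100 kb. A value named outside this rule was chosen after it was seen. The genes and gene lists were chosen with earlier results of these data known. With 19.0 to 42.0 estimated counts per CPM, genes under 0.1 CPM rest on a few counts a library. Some genes are counted in the totals and are not reported here by name.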

Additional observations from a re-analysis of the deposited data

Results flagged for a closer look

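Among 57 groups of 6 or 7 mice examined for the genes named in the condition comparisons without social interaction and for Pou2f2 and Pbx2, 5 held a library whose gap to its neighbour exceeded the Dixon limit, and chance gives about 1 in 20 groups. In BLA, Irx3 stood at 0.797 CPM in 1 Ctrl_Veh mouse. In ACC, Isl1 stood at 0.454 CPM in 1 Ctrl_Veh mouse and at 1.89 CPM in 1 ELA_Veh mouse, whose striatal marker sum was 833.6 CPM. In DMT, Nkx2-1 stood at 0.398 CPM in 1 Ctrl_Veh mouse and at 2.87 CPM in 1 ELA_Veh mouse, and the latter library had a choroid plexus sum of 1073 CPM. The part of other tissue in these values was not tested.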

How the results depend on the processing

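Without the minimum of 1 on the log2 difference, calls higher and lower were 21 and 30 in mPFC, 23 higher in ACC, 40 and 17 in Nacc, 28 and 16 in BLA, 26 lower in DMT, and 25 and 22 in vHipp. The 27 lower in ACC and 30 higher in DMT were among the counts that stayed within 1.5 times. Leading genes were then 4 in mPFC, 2 in ACC, 17 in Nacc, 2 in BLA and 6 in vHipp, and 22 genes differed between mPFC and ACC. Of these 22, 14 were higher in mPFC (background 21%) and 8 in ACC (17.6%). For the other counts without the minimum, the share over all genes was not worked out. DESeq2 gave 5 lower in BLA, 7 between mPFC and ACC, and 4 between the sets. Without the libraries nearest to another region, an alternative added after seeing the data, 1 gene led in BLA, 5 differed between mPFC and ACC and 1 between the sets. Without the 12 cortical libraries high in olfactory or striatal markers, also added after seeing the data, 5 differed between mPFC and ACC, and 144 of the 151 regional calls remained, with 7 gained. In the libraries without social interaction alone, 139 remained, 12 were lost and 5 gained. The causes were not tested. With the mouse as replicate block all 151 regional calls remained, and Lhx1 was added between mPFC and ACC (1.56, adjusted p = 0.0356 with edgeR). DESeq2 made 162 regional calls, 150 of them shared. No called value changed its direction, while the uncalled differences between mPFC and ACC of Meis1 (0.89 to -0.06), Lhx1 (1.58 to -0.23) and Lhx5 (1.23 to -0.74) did without the cortical libraries, and 204 other counts stayed within 1.5 times. Of the values of genes named by the fixed rule, 565 kept their side of the threshold and 5 lost it (Dlx2 in mPFC, Irx2 and Otx2 in ACC, and Pou2f2 under 2 alternatives). Calls of other genes changed too, such as Irx5 and Lhx5 in ACC and Lhx9 between mPFC and ACC, as given with the regions. Groups of 6 or 7 mice, other tissue in punches, and 12 Nacc libraries that matched another mouse limit these comparisons. Condition comparisons within a region used different mice, so no pairing applied there. Another scaling moved the median of all genes by at most 0.006 in size.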
